A study of Mus musculus with 21 samples.

Results

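Intermediate filament genes were examined in the cerebellum and in cultured cerebellar granule cells of mice that lack cystatin B, the cysteine protease inhibitor encoded by Cstb. The members were chosen by symbol, and all probe sets that the array annotation gives to one of these symbols alone were kept: Gfap, Vim, Nes, Synm and Des, and the neuronal genes Ina, Nefl, Nefm, Nefh and Prph. All 10 genes were measured, by 24 of the 45037 probe sets tested, and 18193 genes had a probe set of their own in the whole table. No probe set of these genes was shared with another symbol. Each gene had between 1 probe set (Nefm, Nefh) and 4 (Prph), and every one is given below.

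The knockout mice carried the targeted Cstb tm1Rm allele, and the controls were wild type littermates, all on the 129SvJ background. RNA of whole cerebellum was taken at postnatal day 7 (P7), with 4 knockout and 4 wild type arrays, and at P30, with 3 arrays of each genotype. Another experiment used granule cell cultures set up from cerebella of P5 pups, with 3 knockout and 4 wild type arrays. These cultures were stripped of meninges at dissection, grown in serum-containing medium for 2 days in vitro, and given 10 µM AraC, an inhibitor of DNA synthesis, against glial growth. The labels do not say whether an array came from 1 animal or from a pool, so the p-values measure the spread between these samples. By their labels, the P7 arrays held 3 male and 1 female knockout and 1 male and 3 female wild type samples, and the cultures held both sexes in each genotype. The P30 arrays were labelled male apart from 1 knockout array, whereas the methods give the P30 mice as males only.

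Intermediate filaments are ropelike polymers that give a cell its mechanical resilience, and each cell type builds them from its own set of subunits. Astrocytes and the Bergmann glia of the cerebellum use glial fibrillary acidic protein (Gfap) and vimentin (Vim), and a rise of both is a familiar sign of reactive astrocytes. Vimentin is also the main subunit of fibroblasts, endothelium and other mesenchymal cells, and nestin (Nes) is a subunit found in neural progenitors. Neurons assemble neurofilaments from the light, medium and heavy chains (Nefl, Nefm, Nefh) with α-internexin (Ina) or peripherin (Prph), and in the axon these set the calibre.

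The deposited values are log2 signals from which the median of every probe set was taken within each experiment. Levels are therefore not kept. They cannot be set in order between genes, and the labelled tissue cannot be tested against the levels of its markers. Below, every array value is a log2 signal relative to the wild type mean of the same probe set and experiment, listed in order of replicate number. Both Cstb probe sets were lower in knockout in all 3 experiments, with log2 differences of -3.10 to -1.86. Several arrays stood apart. The control probe sets for 18S ribosomal RNA, here relative to the median of the experiment, averaged 3.39 on P7 knockout array 5, against -0.395 to 0.641 on the other P7 arrays. Xist and Eif2s3y, which mark sex, followed the labels at P7, showed no difference between the P30 arrays in spite of the one female label, and went against the label or gave a mixed signal on knockout cultures 1 and 2 and wild type cultures 7 and 8.

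In P30 cerebellum all 3 probe sets of Gfap were upregulated in Cstb-/- mice, 3.35-fold to 5.15-fold, and no other member passed the thresholds. In the cultures 1 of 3 Vim probe sets was upregulated, 1.93-fold, and in P7 cerebellum none of the 24 probe sets passed the thresholds. To be called, a probe set had to differ at least 1.3-fold and to reach a limma adjusted p, corrected over all probe sets, below 0.05 in cerebellum or below 0.01 in culture. Of all probe sets tested, 0.00666% were called at P7, 0.144% at P30 and 2.54% in the cultures. Without correction, limma gave p under 0.05 for 4 of the 24 probe sets at P7, 6 at P30 and 9 in the cultures, beside 9.45%, 7.72% and 31.6% of all probe sets. The median log2 difference over the 24 probe sets was 0.0547 at P7, -0.0048 at P30 and 0.0564 in the cultures, and that over all probe sets was 0.0105, -0.00783 and -0.0245.

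**Figure D1:**
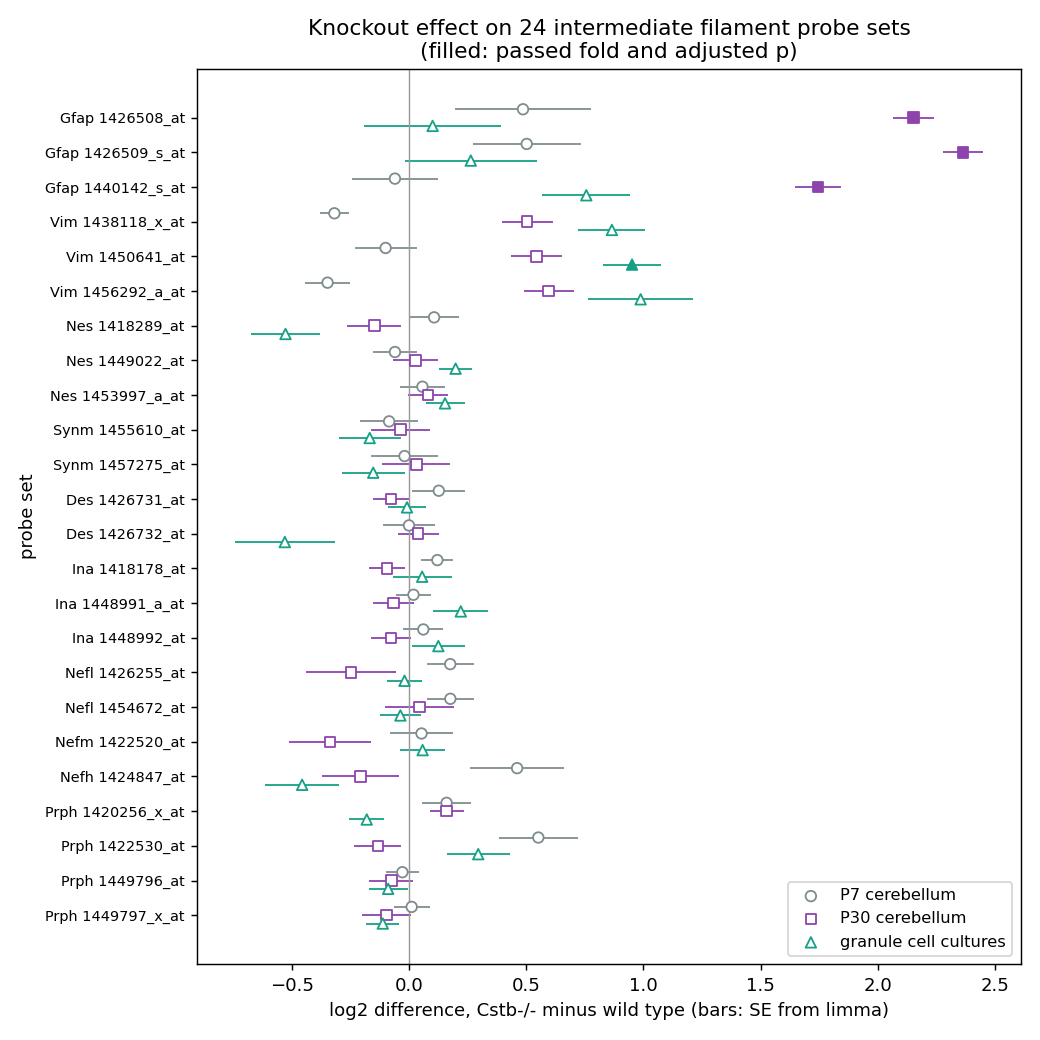
Log2 difference, Cstb-/- minus wild type, with its SE from limma (x axis) for the 24 probe sets (y axis) in P7 cerebellum (circles), P30 cerebellum (squares) and granule cell cultures (triangles). Filled symbols passed the fold and adjusted p thresholds: the 3 Gfap probe sets at P30, between 1.75 and 2.36, and 1 Vim probe set in the cultures, at 0.95.

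Gfap, the defining filament of astrocytes, gave the largest difference among the members. In P30 cerebellum, probe set 1426509_s_at read 2.30, 2.35 and 2.44 on the 3 knockout arrays and -0.056, -0.10 and 0.15 on the 3 wild type arrays. Probe set 1426508_at read 2.03, 2.27 and 2.16 in knockout and 0.076, -0.11 and 0.034 in wild type. Probe set 1440142_s_at read 1.64, 1.67 and 1.93 in knockout and 0.11, -0.0041 and -0.10 in wild type. Every knockout array lay far above every wild type array, with spreads within a genotype below 0.16 (SD, n = 3). The log2 differences were 2.36 (SE 0.0865, limma adjusted p = 7.17e-06), 2.15 (SE 0.0883, adjusted p = 1.44e-05) and 1.75 (SE 0.0974, adjusted p = 0.000112). All 3 calls held with any one P30 array left out. That includes the knockout array labelled female, on which Xist and Eif2s3y showed no difference from the other P30 arrays. With the plain equal-variance test of the methods, corrected over all probe sets, the adjusted p was 0.0973 to 0.200 and none of the 3 passed. All 3 passed when that test was corrected only over probe sets past the fold. The authors, who filtered on the fold, also report Gfap as upregulated at P30. In whole tissue, more astrocytes and more Gfap RNA in each astrocyte cannot be told apart.

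In P7 cerebellum no Gfap probe set was called. Probe set 1426508_at read 0.42, 0.50, 0.70 and 0.32 on the 4 knockout arrays and 0.35, 0.18, -1.10 and 0.57 on the 4 wild type arrays. Probe set 1426509_s_at read 0.26, 0.53, 0.75 and 0.47 in knockout and 0.13, 0.093, -0.79 and 0.57 in wild type. On both, wild type array 3, the one wild type sample labelled male, lay far below all others, and the remaining wild type arrays overlapped with the knockout arrays. The differences were 0.49 (SE 0.289, limma adjusted p = 0.612) and 0.50 (SE 0.230, adjusted p = 0.531), and without that array they were 0.12 and 0.24. On that array the astrocyte and Bergmann glia marker list, which does not hold Gfap, averaged 0.0392, against -0.0577 to 0.0162 on the other wild type arrays. The SD of its values over all probe sets was 0.225, against 0.122 to 0.133 on the other wild type arrays and 0.128 to 0.23 on the knockout arrays. The third probe set, 1440142_s_at, did not share the low value and differed by -0.061 (SE 0.184, adjusted p = 0.932).

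In the granule cell cultures the Gfap probe sets differed from one another. Probe set 1440142_s_at read 0.85, 0.56 and 0.86 on the 3 knockout arrays and 0.50, -0.32, -0.21 and 0.034 on the 4 wild type arrays. The genotypes did not overlap, but wild type culture 4 came close to knockout culture 2. The difference was 0.76 (SE 0.189), and its limma adjusted p of 0.0414 did not pass 0.01. For 1426508_at the knockout arrays read 0.79, 0.091 and -0.58 and the wild type arrays 0.38, -0.24, -0.17 and 0.032. For 1426509_s_at they read 1.00, -0.0074 and -0.21 in knockout and 0.39, -0.14, -0.24 and -0.0074 in wild type. Here knockout culture 1 was the highest array of all and knockout culture 3 lay at or near the bottom, and the knockout arrays spanned the whole wild type range on 1426508_at and overlapped with it on 1426509_s_at. These differences were 0.10 (SE 0.293, adjusted p = 0.832) and 0.26 (SE 0.281, adjusted p = 0.536), small beside the spread between knockout cultures (SD 0.686 and 0.649, n = 3).

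**Figure D2:**
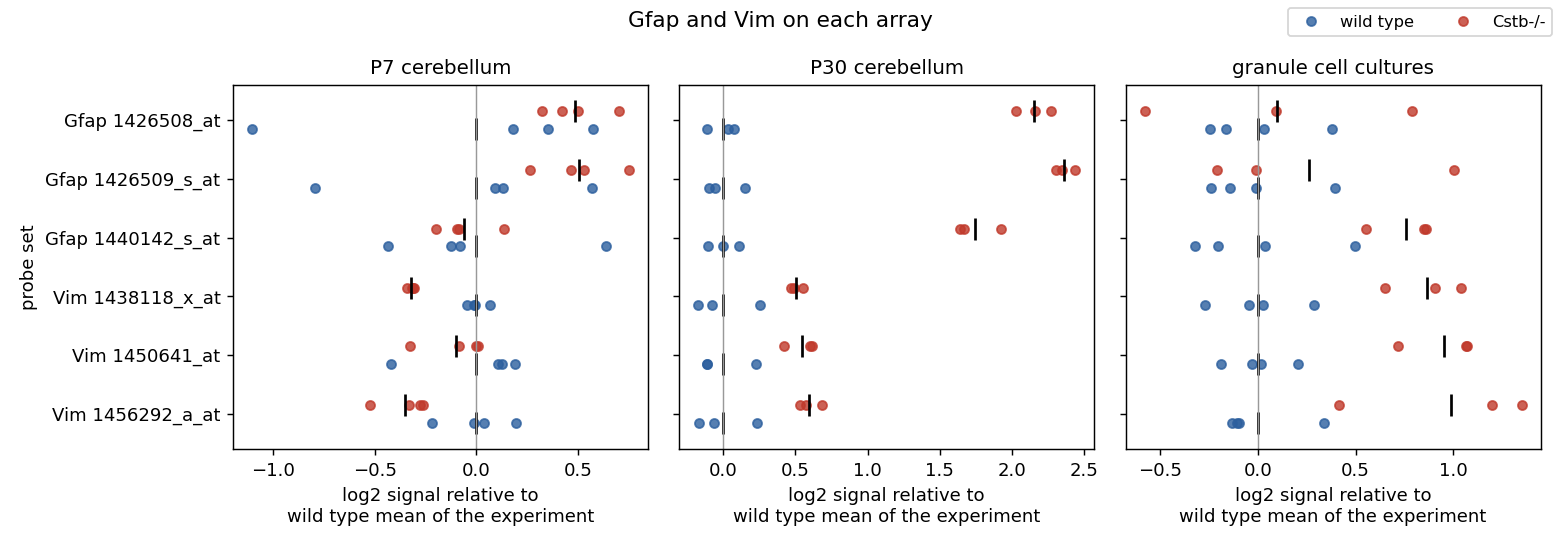
Log2 signal of each array relative to the wild type mean of its experiment (x axis) for the 3 Gfap and 3 Vim probe sets (y axis), with wild type arrays in blue, Cstb-/- arrays in red and group means as black ticks. At P30 the genotypes are apart on all 6 probe sets, with the Gfap knockout arrays between 1.64 and 2.44. In P7 cerebellum 1 wild type array lies at -1.10 and -0.79 on 2 Gfap probe sets.

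Vim, the filament that astrocytes share with progenitors and mesenchymal cells, was higher in knockout on all 3 probe sets at P30 and in the cultures and lower on all 3 at P7. At P30, probe set 1456292_a_at read 0.53, 0.57 and 0.68 on the knockout arrays and -0.17, -0.064 and 0.23 on the wild type arrays. Probe set 1450641_at read 0.60, 0.62 and 0.42 in knockout and -0.11, -0.11 and 0.23 in wild type. Probe set 1438118_x_at read 0.49, 0.47 and 0.55 in knockout and -0.17, -0.079 and 0.25 in wild type. The knockout arrays lay above every wild type array on all 3, and wild type array 3 was the highest control each time. The differences were 0.60 (SE 0.107, limma adjusted p = 0.113), 0.54 (SE 0.108, adjusted p = 0.180) and 0.50 (SE 0.109, adjusted p = 0.250), none of which passed 0.05. Without wild type array 3 all 3 passed, at 0.71, 0.66 and 0.63 (adjusted p = 0.0297, 0.0499 and 0.0334). Together with Gfap and 1 Prph probe set, 7 of the 24 probe sets had every knockout array above every wild type array at P30 and none had every one below, beside 6.24% and 6.25% of all probe sets.

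In P7 cerebellum, Vim probe set 1438118_x_at read -0.34, -0.31, -0.32 and -0.31 on the knockout arrays and -0.008, -0.012, -0.044 and 0.065 on the wild type arrays. The 4 knockout arrays were tightly grouped below all controls. Probe set 1456292_a_at read -0.28, -0.26, -0.52 and -0.33 in knockout and 0.039, 0.19, -0.22 and -0.013 in wild type, again with no overlap. Probe set 1450641_at read -0.00075, -0.085, -0.33 and 0.01 in knockout and 0.19, 0.13, -0.42 and 0.10 in wild type, and here wild type array 3 was the lowest of all. The differences of -0.32 (SE 0.0615), -0.35 (SE 0.0967) and -0.10 (SE 0.133) were all under the fold of 1.3, with limma adjusted p of 0.209, 0.358 and 0.826. By their equal-variance test (fold of 1.3, corrected p under 0.05), the authors list 1456292_a_at as lower in knockout at P7. Here the fold of that probe set was 1.27. Probe sets 1438118_x_at and 1456292_a_at were the 2 of the 24 with every knockout array below every wild type array at P7, and 1 Prph probe set had every one above, beside 2.84% and 2.8% of all probe sets. The array means of some marker lists of other cells were also lower in knockout without overlap. The choroid plexus list averaged -2.96 to -0.287 on the knockout arrays and -0.203 to 0.131 on the wild type arrays. The meningeal fibroblast list averaged -0.292 to -0.0651 on the knockout arrays and -0.0449 to 0.0669 on the wild type arrays, and the mitosis list averaged -0.219 to -0.0757 and -0.0595 to 0.0549, while the means of the radial glia and progenitor list overlapped (-0.153 to -0.0447 and -0.105 to 0.0534). No probe set of these lists was called at P7, and their part in the Vim values was not tested.

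In the granule cell cultures, Vim probe set 1450641_at read 1.07, 0.72 and 1.06 on the 3 knockout arrays and 0.20, -0.19, 0.016 and -0.029 on the 4 wild type arrays, and was called. Its difference was 0.95 (SE 0.123, limma adjusted p = 0.00392), a fold of 1.93. Probe set 1438118_x_at read 1.04, 0.65 and 0.91 in knockout and 0.29, -0.27, 0.026 and -0.045 in wild type, and probe set 1456292_a_at read 1.35, 0.42 and 1.20 in knockout and 0.34, -0.13, -0.11 and -0.10 in wild type. On all 3 probe sets the genotypes were apart, knockout culture 2 was the lowest of the knockout arrays and wild type culture 4 the highest of the controls. The latter 2 probe sets differed by 0.87 (SE 0.143, adjusted p = 0.0101) and 0.99 (SE 0.223, adjusted p = 0.0304) and missed 0.01. The call depended on single arrays: without knockout culture 1 or 3, or wild type culture 5, 7 or 8, no Vim probe set passed, at differences of 0.89 to 0.96 for 1450641_at (adjusted p = 0.0131 to 0.0250), and without wild type cultures 7 and 8 together its adjusted p was 0.116. With the equal-variance test of the methods it did not pass either, at an adjusted p of 0.0533 over all probe sets and 0.0109 over those past the fold. As the mean of its 3 probe sets, Vim was called at 0.94 (SE 0.149, adjusted p = 0.00471 over all genes), as were 4.56% of all genes. In all, 5 of the 24 probe sets had every knockout culture above every wild type culture and 1 had every one below, beside 13.4% and 9.33% of all probe sets.

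The bases before the transcription start are shown for Gfap and Vim, the 2 genes with a called probe set. RefSeq windows (assembly GRCm38.p6) existed for 7 of the 10 genes, and each line gives the 250 bases before the annotated start, on the strand of the gene. Capitals mark a CCAAT box (CCAAT, or ATTGG for the other strand) and a TATA box (TATAAA). The Gfap window is chr11:102897201-102897450 on the minus strand and the Vim window chr2:13574061-13574310 on the plus strand.
Gfap: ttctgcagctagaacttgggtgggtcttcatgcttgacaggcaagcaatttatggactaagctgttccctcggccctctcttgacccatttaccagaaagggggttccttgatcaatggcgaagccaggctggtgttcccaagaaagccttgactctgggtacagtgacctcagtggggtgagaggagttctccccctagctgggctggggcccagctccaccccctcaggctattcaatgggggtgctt
Vim: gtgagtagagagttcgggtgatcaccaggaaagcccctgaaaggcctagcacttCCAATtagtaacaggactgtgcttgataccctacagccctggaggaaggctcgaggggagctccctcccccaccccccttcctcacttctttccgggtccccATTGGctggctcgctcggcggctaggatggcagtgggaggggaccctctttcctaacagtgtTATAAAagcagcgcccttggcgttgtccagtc

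In the Vim window the TATA box began 32 bases before the start, and the CCAAT boxes began 196 and 94 bases before it, one on each strand. A CCAAT box stood in 33.8% and TATAAA in 12.4% of 32851 windows of the same length, searched on both strands. The Gfap window held neither. The STAT letters TTCNNNGAA, which astrocyte genes driven by Stat3 can carry, and the AP-1 letters TGANTCA stood in none of the 7 windows, against 7.02% and 6.75% of all windows. The absence says only that these letters are not in this window.

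Nestin, synemin and desmin, subunits found in progenitors, in astrocytes and muscle, and in muscle, had 7 probe sets and none was called in any experiment. In the cerebella the 5 probe sets of Nes and Synm lay between -0.09 and 0.11 at P7 and between -0.15 and 0.08 at P30, with limma adjusted p of 0.766 or more, and those of Des between -0.08 and 0.13. All these genotype groups overlapped. In the cultures, Nes probe set 1418289_at read -0.75, -0.16 and -0.67 on the knockout arrays and -0.16, 0.17, -0.043 and 0.04 on the wild type arrays. Its difference was -0.53 (SE 0.148, limma adjusted p = 0.0592), with knockout cultures 1 and 3 below all controls and knockout culture 2 equal to the lowest control. Such ties between arrays occurred in 51.3% of all probe sets in the cultures and in 10 of these 24. Without knockout culture 2 it passed, at -0.71 (adjusted p = 0.00661). The other Nes probe sets pointed the other way, with 0.20 (SE 0.0694, adjusted p = 0.0990) for 1449022_at and 0.15 (SE 0.0833, adjusted p = 0.237) for 1453997_a_at, so the probe sets of this gene disagreed.

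The 2 Des probe sets disagreed in the cultures as well. Probe set 1426732_at read -0.90, 0.0027 and -0.69 on the knockout arrays and -0.32, 0.17, 0.085 and 0.062 on the wild type arrays, a difference of -0.53 (SE 0.213, limma adjusted p = 0.133). Probe set 1426731_at differed by -0.0092 (SE 0.0817, adjusted p = 0.947). As for Nes 1418289_at, the low arrays were knockout cultures 1 and 3, and knockout culture 2 lay among the controls. Both Synm probe sets were lower in the knockout cultures, by -0.17 and -0.15 (SE 0.133 and 0.135, adjusted p = 0.402 and 0.450), with overlapping genotypes.

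**Figure D3:**
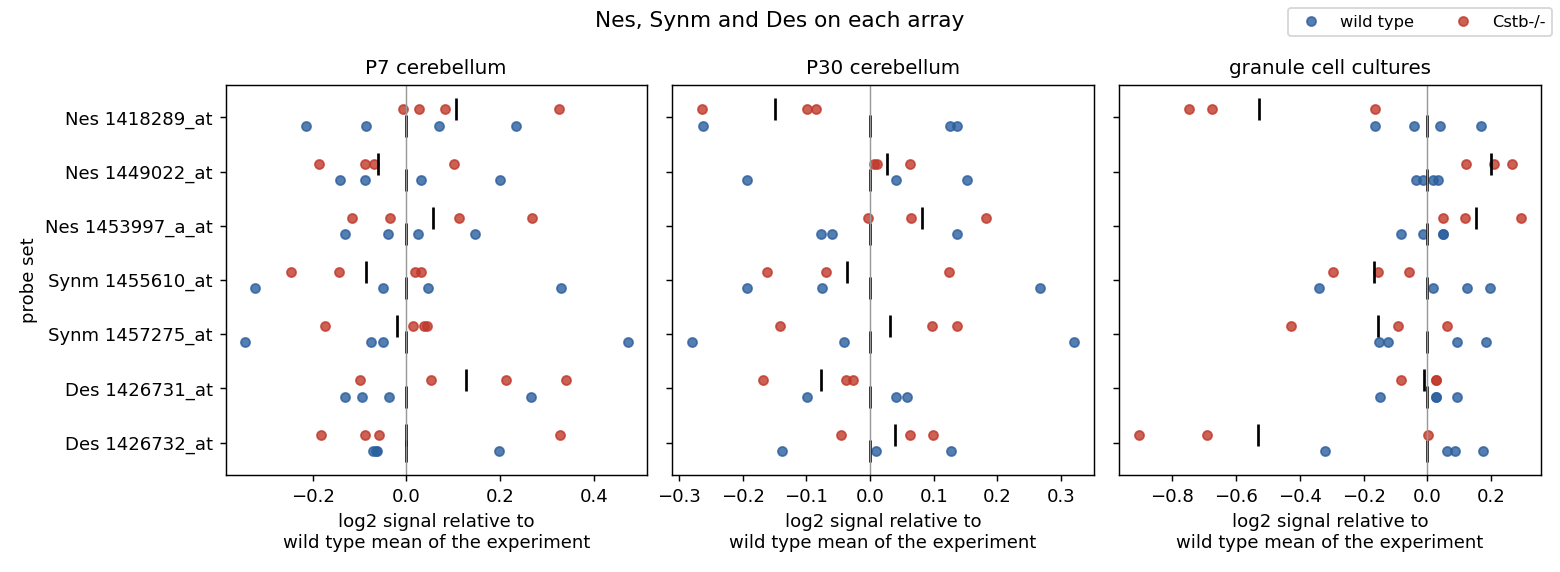
Log2 signal of each array relative to the wild type mean of its experiment (x axis) for the Nes, Synm and Des probe sets (y axis), with wild type in blue, Cstb-/- in red and group means as black ticks. Genotypes overlap on most probe sets. In the cultures, 2 of 3 knockout arrays lie between -0.90 and -0.67 on Nes 1418289_at and Des 1426732_at.

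None of the 11 probe sets of the neuronal genes was called in any experiment. Their median difference was 0.12 at P7, with 10 of 11 above 0, -0.10 at P30, with 9 of 11 below 0, and -0.020 in the cultures, with 5 of 11 above 0. Of all probe sets, 53.7% lay above 0 at P7, 47% at P30 and 45.5% in the cultures. The neurofilament chains share arrays and a cell source, so these probe sets are not independent counts.

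At P7 the heavy chain gene Nefh gave the widest difference of the neurofilament triplet, with 0.28, 0.49, 0.81 and 0.26 on the knockout arrays and 0.42, -0.45, 0.36 and -0.33 on the wild type arrays. The wild type arrays formed 2 pairs, and the upper pair overlapped with the knockout arrays. The difference was 0.46 (SE 0.200, limma adjusted p = 0.516). The light chain gene Nefl differed by 0.18 and 0.18 on its 2 probe sets (SE 0.0993 and 0.0997, adjusted p = 0.594 and 0.594), and the medium chain gene Nefm by 0.053 (SE 0.134, adjusted p = 0.917). Knockout array 3 was the highest knockout array on all 4 triplet probe sets. Without it the differences were 0.35 for Nefh, 0.082 and 0.09 for Nefl and -0.047 for Nefm. That array also had the highest mean of the oligodendrocyte list (0.805, against 0.378 to 0.440 on the other knockout arrays and -0.235 to 0.169 in wild type) and of the interneuron and deep nuclei list (0.325, against 0.0802 to 0.228 and -0.0800 to 0.106). The part of these cell types in the neurofilament values was not tested.

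Peripherin is the subunit of peripheral and of some central neurons. At P7 its probe set 1422530_at read 0.22, 0.25, 1.12 and 0.62 on the knockout arrays and 0.027, -0.067, -0.043 and 0.083 on the wild type arrays. All 4 knockout arrays were above all controls, again with array 3 highest. The difference was 0.55 (SE 0.167) at a limma adjusted p of 0.402, and 0.36 without array 3. The other 3 Prph probe sets lay between -0.029 and 0.16 at P7, and they did not share the separation. At P30 the 4 probe sets lay between -0.13 and 0.16 and in the cultures between -0.18 and 0.29, with adjusted p of 0.142 or more.

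At P30 the triplet was lowest on 1 knockout array. Nefm read -0.28, -0.76 and 0.025 on the knockout arrays and -0.13, 0.14 and -0.0099 on the wild type arrays, a difference of -0.34 (SE 0.174, limma adjusted p = 0.700). Nefh read -0.067, -0.61 and 0.056 in knockout and -0.18, 0.054 and 0.13 in wild type, a difference of -0.21 (SE 0.163, adjusted p = 0.802). Nefl read -0.20, -0.69 and 0.15 and -0.23, 0.19 and 0.037 on 1426255_at, a difference of -0.25 (SE 0.192, adjusted p = 0.798), and differed by 0.043 (SE 0.146, adjusted p = 0.966) on 1454672_at. Knockout array 2 was the lowest and knockout array 3 the highest of the knockout arrays on 10 and 11 of the 11 neuronal probe sets, and the genotypes overlapped on each of those named here. Without it the differences were -0.13 for Nefm, -0.006 for Nefh and -0.027 and 0.22 for Nefl. The interneuron and deep nuclei list averaged -0.233 on that array, -0.162 and 0.0962 on the other knockout arrays and -0.0941 to 0.0660 in wild type, and its part in these values was not tested.

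In the cultures, Nefh was again the widest of the triplet, but lower in knockout, with -0.55, -0.11 and -0.71 on the knockout arrays and -0.27, 0.17, 0.046 and 0.056 on the wild type arrays. The difference was -0.46 (SE 0.158, limma adjusted p = 0.0963), and knockout cultures 1 and 3 were the low arrays, as on the Nes and Des probe sets above. Nefl and Nefm differed by -0.038 to 0.057, with adjusted p of 0.694 or more. The 3 Ina probe sets, which measure the internexin of early axons, differed by 0.055, 0.22 and 0.12 in the cultures (adjusted p = 0.781, 0.230 and 0.469), with knockout culture 1 the highest array on each. In the cerebella they lay between -0.10 and 0.12. Nefl and Nefm are neighbours on the chromosome in the RefSeq annotation.

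**Figure D4:**
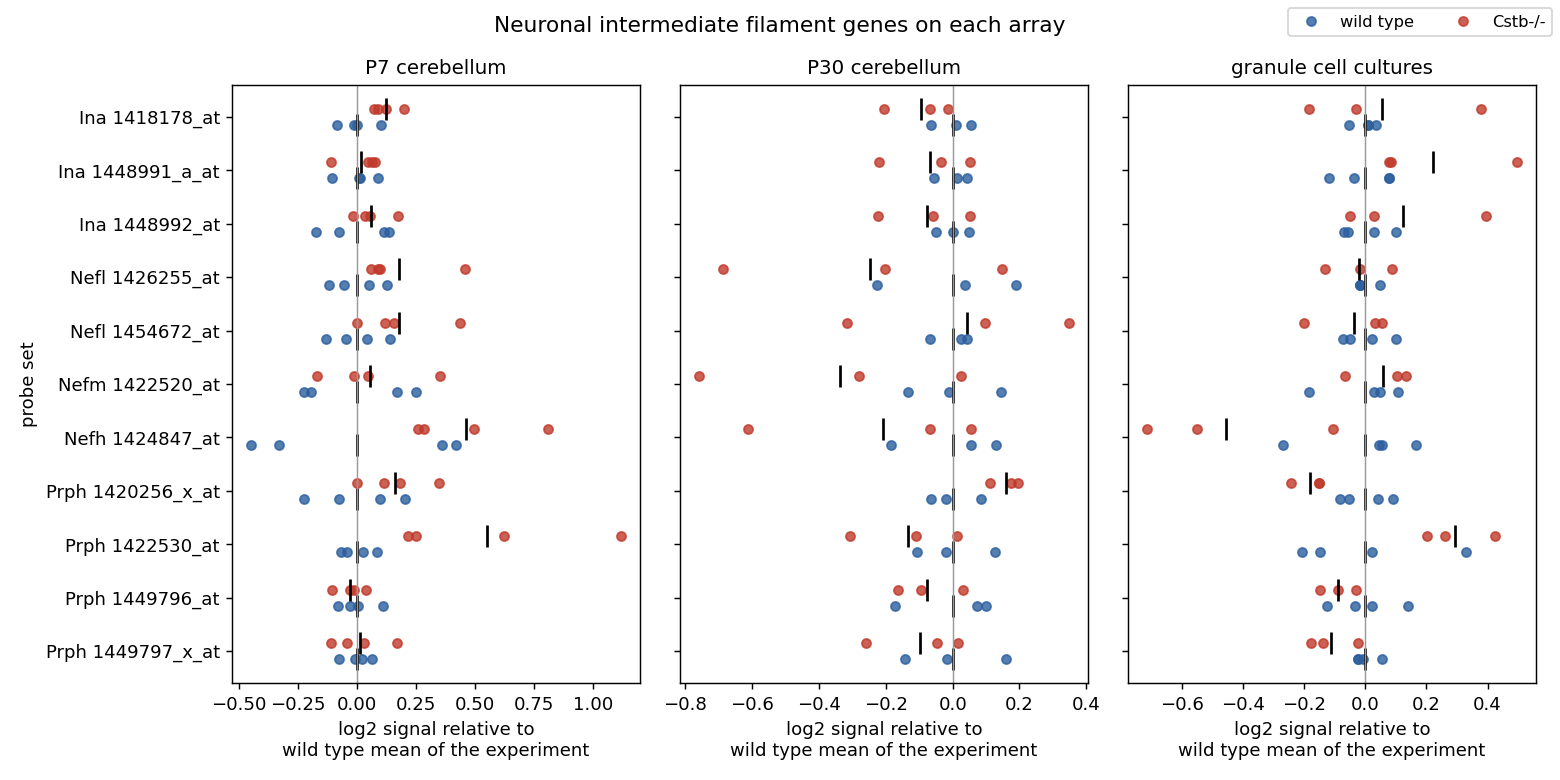
Log2 signal of each array relative to the wild type mean of its experiment (x axis) for the 11 probe sets of Ina, Nefl, Nefm, Nefh and Prph (y axis), with wild type in blue, Cstb-/- in red and group means as black ticks. One knockout array lies lowest on the triplet at P30, down to -0.76, and 1 knockout array lies highest on Prph 1422530_at at P7, at 1.12.

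The knockout effect was next compared between experiments, as a contrast of the differences in 1 limma fit over all 6 groups. The p was corrected over all probe sets, with a threshold of 0.05. That fit takes 1 variance for each probe set from all 21 arrays, so arrays outside a comparison also bear on its SE and p. Between P30 and P7 cerebellum, 3 of the 24 probe sets differed, beside 0.124% of all probe sets. The Gfap effect was higher at P30 by 1.86 (SE 0.360, limma adjusted p = 0.0366) on 1426509_s_at and by 1.81 (SE 0.270, adjusted p = 0.00196) on 1440142_s_at. The contrast for 1426508_at was 1.67 (SE 0.416, adjusted p = 0.201) and passed without P7 wild type array 3 (2.03, adjusted p = 0.00281). The Vim effect was higher at P30 by 0.82 on 1438118_x_at (SE 0.158, adjusted p = 0.0366). The calls for Gfap 1426509_s_at and Vim 1438118_x_at were lost when single arrays were left out (adjusted p up to 0.139 and 0.190), whereas that for Gfap 1440142_s_at held in every such fit.

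Between the cultures and P7 cerebellum, the effect differed on 6 of the 24 probe sets, beside 20.3% of all probe sets. All 3 Vim probe sets were among them, with contrasts of 1.18, 1.05 and 1.34 (adjusted p = 1.76e-05, 0.000563 and 0.000357). Gfap 1440142_s_at gave 0.82 (adjusted p = 0.0309), Nes 1418289_at -0.63 (adjusted p = 0.0201) and Nefh -0.92 (adjusted p = 0.0253). The last 3 lost their call when some single arrays were left out. Between the cultures and P30 cerebellum, 3 of the 24 probe sets differed, beside 5.1% of all probe sets. They were the 3 Gfap probe sets, lower in the cultures by -2.05, -2.10 and -0.99 (adjusted p = 0.00644, 0.00140 and 0.0419). The call for 1440142_s_at was lost when most single arrays were left out (adjusted p up to 0.112). The Vim contrasts there were 0.36 to 0.41 (adjusted p = 0.219 to 0.387). Tissue and cultures differ in preparation, age and cell content together, which cannot be told apart here.

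Genes tied to these filaments by function were counted from lists, beside the 2.54% of all probe sets called in the cultures. The remaining intermediate filament genes (lamins, keratins, beaded filament and related genes, 26 probe sets of 13 genes) held no changed probe set in either cerebellum, with medians of 0.0692 at P7 and -0.0612 at P30. In the cultures 1 of 26 rose (3.85%), 1 of the 5 probe sets of lamin A/C (Lmna), by 1.26 (SE 0.141, limma adjusted p = 0.00208). Filament linkers, chaperones and turnover genes (28 probe sets of 11 genes) also held none in the cerebella (medians 0.0233 and -0.0288), and 3 of 28 rose in the cultures (10.7%), among them the small heat shock genes Hspb1, by 1.64 (SE 0.0979, adjusted p = 0.000109), and Cryab, by 1.54 (SE 0.193, adjusted p = 0.00336). Of the regulators of Gfap transcription (50 probe sets of 14 genes), none changed in the cerebella (medians -0.0232 and 0.0486). At P30, 29 of the 50 lay above 0, and the array means were 0.0119 to 0.112 in knockout and -0.0134 to 0.0155 in wild type. The 4 probe sets of Stat3, the transcription factor of cytokine signalling, gave -0.15, 0.12, 0.049 and 0.11 at P30 (adjusted p = 0.712 to 0.929). In the cultures 3 of 50 were called (6.0%). Socs3, a feedback inhibitor of cytokine signalling, rose on 1 of 3 probe sets, by 1.09 (SE 0.138, limma adjusted p = 0.00363). The cytokine receptor chain Il6st, named after its values were seen, rose on 1 of 4, by 0.90 (SE 0.136, adjusted p = 0.00722). The nuclear factor Nfib fell on 1 of 7, by 0.84 (SE 0.122, adjusted p = 0.00609).

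At P30 the Gfap rise stood beside several glial marker lists, with 0.138% of all probe sets called higher. Of the astrocyte and Bergmann glia list, without Gfap and Vim, 0 of 39 probe sets passed by limma, 13 had p under 0.05 uncorrected and 31 lay above 0, with a median of 0.103. Its array means were 0.0761 to 0.143 in knockout and -0.00955 to 0.00885 in wild type. Its highest differences were those of the water channel Aqp4, 0.55 and 0.52, which did not pass (adjusted p = 0.0724 and 0.0856). Of the reactive astrocyte list, 4 of 24 probe sets rose and none fell, all 24 lay above 0 and the median was 0.262. The hyaluronan receptor Cd44 rose by 1.66 and 1.46 (SE 0.191 and 0.104, adjusted p = 0.0144 and 0.000457). Array means were 0.289 to 0.582 in knockout and -0.0215 to 0.0353 in wild type. Of the microglia list, 9 of 16 probe sets rose, with a median of 0.629 and Tyrobp, a signalling adaptor of microglia, up by 2.20 (SE 0.0962, adjusted p = 2.06e-05). Its array means were 0.895 to 1.17 in knockout and -0.159 to 0.127 in wild type. The part of microglia or of other cell types in the Gfap and Vim values was not tested.

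In the cultures, where Vim was called, markers of several other cell types moved with genotype, and 2.07% of all probe sets were called higher. Of the meningeal fibroblast list 12 of 17 probe sets rose, with a median of 1.44, and the collagen gene Col1a1 rose by 3.59 (SE 0.191, limma adjusted p = 6.43e-05). Its array means were 1.46 to 1.53 in knockout and -0.0678 to 0.111 in wild type. Of the smooth muscle and pericyte list 4 of 22 rose, with a median of 0.114, among them Tagln by 2.39 (SE 0.0917, adjusted p = 2.02e-05), and array means were 0.415 to 0.478 and -0.0607 to 0.0498. Of the radial glia and progenitor list 3 of 16 rose, with a median of 0.398, among them Sox2 by 1.33 (SE 0.178, adjusted p = 0.00442). Of the astrocyte and Bergmann glia list 7 of 39 rose, with a median of 0.402, among them the gap junction gene Gja1 by 1.67 (SE 0.212, adjusted p = 0.00361), and array means were 0.328 to 0.449 in knockout and -0.0900 to 0.165 in wild type. Of the mitosis list 25 of 36 rose, with a median of 1.46, and array means were 1.18 to 1.25 and -0.0884 to 0.0768. Of the reactive astrocyte list 1 probe set rose (Timp1, by 1.12, SE 0.0803, adjusted p = 0.000249) and 1 of the 2 Steap4 probe sets fell by 1.77 (SE 0.255, adjusted p = 0.00593), with a list median of -0.125. Vim, Nes and Des are expressed by several of these cell types, and their part in the culture values was not tested.

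**Figure D5:**
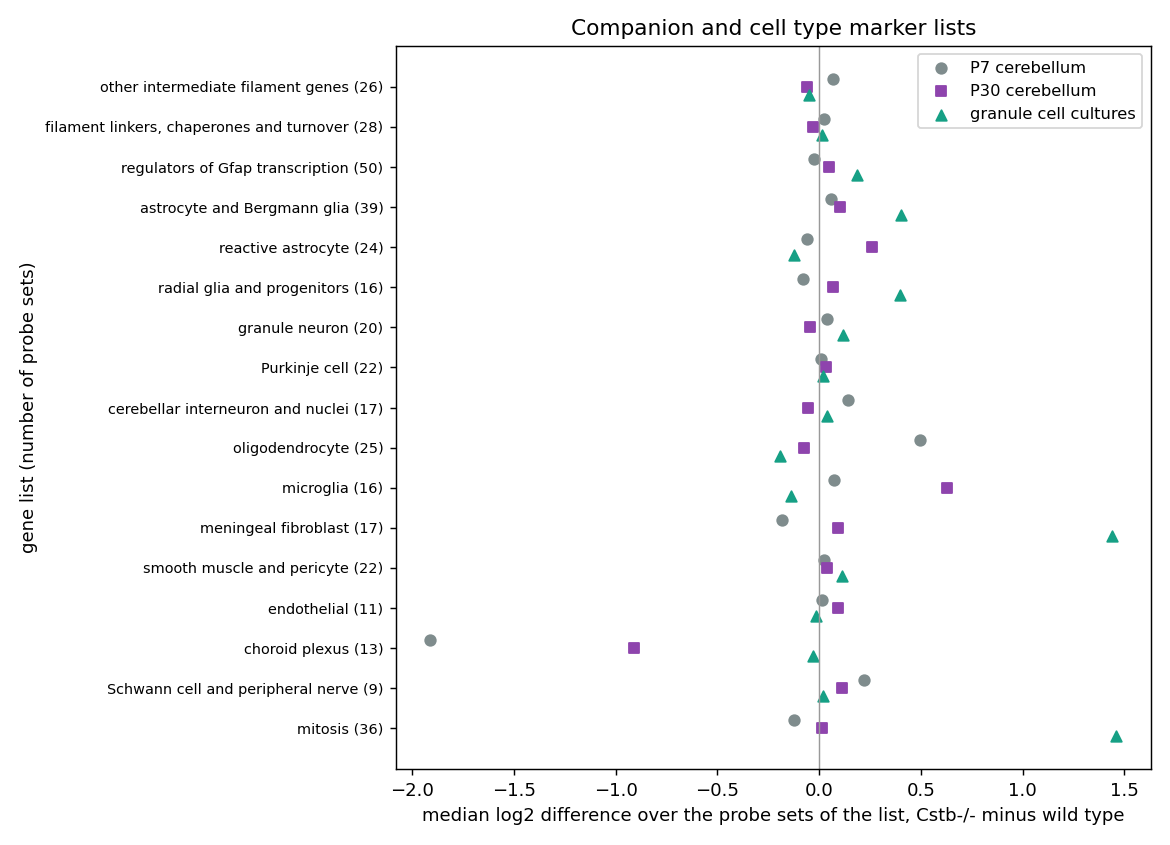
Median log2 difference, Cstb-/- minus wild type (x axis), over the probe sets of each companion and cell type list (y axis, number of probe sets in brackets) in P7 cerebellum (circles), P30 cerebellum (squares) and granule cell cultures (triangles). Meningeal fibroblast and mitosis medians are at 1.44 and 1.46 in the cultures, microglia at 0.629 in P30 cerebellum and choroid plexus at -1.91 in P7 cerebellum.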

How the data were processed

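RNA was hybridized to Affymetrix whole-genome mouse arrays, 21 of which were analysed. By the methods, the authors generated RMA values (background adjustment, quantile normalization, summarization) and centred each probe set on its median over the samples, and they left out 1 P7 array of each genotype and 1 knockout culture. Even after this exclusion, the methods give more cultures of each genotype than the 3 knockout and 4 wild type arrays used here. The deposited values are log2 signals, with a median of 0 for each probe set within an experiment (to within 5e-07), so the samples of an experiment can be compared but levels, and signal over background, are lost. The number of arrays limits the precision.

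Of 45101 probe sets, 64 controls were left out. The platform annotation gave 34945 probe sets 1 symbol, 932 several and 9160 none. Genotypes were compared within each experiment with limma 3.58.1 (lmFit, eBayes at default settings) in R 4.3.3, 2-sided, with Benjamini-Hochberg correction over 45037 probe sets and the fold of 1.3 and adjusted p of 0.05 (cerebella) or 0.01 (cultures) that the methods use. Differences between experiments were a contrast in 1 fit of 6 groups. Replicates were the arrays as labelled, and no pair of arrays in a group looked like a duplicate. Alternatives comprised the methods' equal-variance test, no fold threshold, median scaling, robust or weighted variances, 1 fit over all groups, the labelled sex, gene means, a replicate block and each array left out. A filter on dim probe sets and other background corrections could not be run on centred values. The test was tried on simulated data with planted changes. Members and lists (companion genes and markers of cerebellar, vascular, meningeal and dividing cells) were chosen with earlier results of these data known. All member probe sets are named, and from each list at most the 2 largest rises and 2 largest falls per experiment; all Stat3 probe sets are given at P30, and 1 Il6st probe set in the cultures, both chosen after their values were seen. Promoter windows are from RefSeq. Tables were handled in Python 3.11.15 with pandas 2.3.3.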

Additional observations from a re-analysis of the deposited data

Results flagged for a closer look

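Of 72 groups of 4 arrays, 7 held an array that stood apart from the others by Dixon's criterion, and chance gives this in about 1 in 20 groups. These values are log2 signals relative to the wild type mean. In P7 cerebellum they were wild type array 3 for Vim 1450641_at (-0.42), knockout array 5 for Synm 1457275_at (-0.17), wild type array 4 for Des 1426732_at (0.20), knockout array 1 for Ina 1448991_a_at (-0.11) and knockout array 3 for Nefl 1426255_at (0.46). In the cultures they were wild type culture 4 for Vim 1456292_a_at (0.34) and wild type culture 7 for Nefl 1426255_at (0.050). On that Nefl probe set wild type cultures 4, 5 and 8 were tied at -0.017. The tie alone met the criterion there, whatever the size of the gap, and the rate by chance does not hold for ties.

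The knockout effect differed between experiments by the limma contrast for 8 probe sets, in 12 contrasts. From P7 to P30 cerebellum it was higher for Gfap 1426509_s_at (1.86), Gfap 1440142_s_at (1.81) and Vim 1438118_x_at (0.82). From P7 cerebellum to the cultures it was higher for Vim 1438118_x_at (1.18), Vim 1450641_at (1.05), Vim 1456292_a_at (1.34) and Gfap 1440142_s_at (0.82), and lower for Nes 1418289_at (-0.63) and Nefh 1424847_at (-0.92). From P30 cerebellum to the cultures it was lower for Gfap 1426508_at (-2.05), Gfap 1426509_s_at (-2.10) and Gfap 1440142_s_at (-0.99).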

How the results depend on the processing

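In P7 cerebellum no member was called under any alternative. At P30 the count of 3 became 0 with the methods' test corrected over all probe sets, 5 with that test corrected over only those past the fold, and 6 with array weights, and lay between 3 and 6 with 1 array left out (6 without wild type array 3). In the cultures the count of 1 became 0 with the methods' test under either correction and 0 without wild type cultures 7 and 8. It became 3 with array weights, 5 with 1 fit over all groups and 2 with the sex label as a covariate. Xist and Eif2s3y did not bear out that label on knockout cultures 1 and 2 and wild type cultures 7 and 8. The covariate therefore cannot be read as an adjustment for sex. With 1 array left out the count lay between 0 and 4 (4 without knockout culture 2, 3 without wild type culture 4). The count of effects that differed was 3 between P30 and P7, 6 with array weights and 1 to 3 with 1 array left out; 6 between cultures and P7, 8 with array weights and 3 to 7 with 1 array left out; and 3 between cultures and P30, 4 with array weights and 2 to 5 with 1 array left out. The share of all probe sets called was not counted for these alternatives, so the counts do not show a change particular to the members. The cause of these shifts was not tested. Of 2376 values of single probe sets under an alternative, 60 lost a call, 34 gained one, 10 moved by more than the spread between replicates and none with a call changed sign; of 2074 uncalled under both settings, 107 changed sign. Same-numbered P7 arrays deviated together with correlations of 0.00575, 0.046 and 0.168 and P30 arrays with -0.0352, -0.178 and -0.0337. P7 arrays of different number gave -0.211 to 0.28. No pairing by number was seen, but so few pairs cannot exclude it. The replicate block left the counts at 0 in P7 and 3 in P30 cerebellum. P7 knockout array 5 and wild type array 4 have no partner of the same number and add nothing to that fit. The P7 count was 0 without the block too, so it says nothing about pairing. In the cultures no paired analysis was possible because the genotypes share no number. With array levels lost, no statement on signal over background can be made.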

Other observations

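Lists of other cell types, none of which holds a member, gave the following in the same fits. In P7 cerebellum the oligodendrocyte list had 24 of 25 probe sets above 0 and a median of 0.494, and none passed by limma (20 at an uncorrected p under 0.05), with Mog, a late myelin gene, at 1.20 (SE 0.220, adjusted p = 0.206). The median of the choroid plexus list was -1.91 at P7 and -0.911 at P30, with none called (11 and 4 of 13 at an uncorrected p under 0.05). Its array means ran from -2.96 to -0.287 on the P7 knockout arrays and from -3.19 to 0.669 on the P30 knockout arrays, so the knockout samples differed widely among themselves, and P30 knockout array 2, the array lowest on the neuronal filament probe sets, was the one at 0.669. The interneuron and deep nuclei list had 16 of 17 probe sets above 0 at P7, with a median of 0.141, against -0.0530 at P30 and 0.0381 in the cultures, and no call in any experiment.

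The lists of Purkinje cells (medians 0.00774, 0.0326 and 0.0179 at P7, P30 and in the cultures), granule neurons (0.0394, -0.0462 and 0.120), endothelium (0.0154, 0.0941 and -0.0140) and Schwann cells (0.220, 0.112 and 0.0189) had no call in the cerebella. In the cultures 2.54% of all probe sets were called. There 1 of 20 granule neuron probe sets, Fat2, fell by 0.62 (SE 0.0791, limma adjusted p = 0.00382), while 14 of the 20 lay above 0. Of the Purkinje cell list 1 of 22, a probe set of Rora, fell by 1.17 (SE 0.177, adjusted p = 0.00752). In the Schwann cell list 1 of 9, Pmp22, rose by 0.81 (SE 0.130, adjusted p = 0.00890). In the oligodendrocyte list 1 of 25, Olig2, rose by 1.00 (SE 0.156, adjusted p = 0.00810), while 19 of the 25 lay below 0. Of the lists described for 1 or 2 experiments above, the remaining medians were as follows. The astrocyte and Bergmann glia list had 0.0575 at P7, the reactive astrocyte list -0.0569 at P7, and the radial glia and progenitor list -0.0805 at P7 and 0.0699 at P30. The microglia list had 0.0733 at P7 and -0.139 in the cultures, the meningeal fibroblast list -0.182 and 0.0937 in P7 and P30 cerebellum, the smooth muscle and pericyte list 0.0221 and 0.0402, and the mitosis list -0.123 and 0.0167. None of these held a called probe set. The oligodendrocyte list had -0.0753 at P30 and -0.190 in the cultures, and the choroid plexus list -0.0309 in the cultures.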
